A study of Mus musculus with 19 samples.

Results

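The 10 genes described here are expressed in immature neurons or dividing cells. Dcx, Sox11, Sox4, Dpysl3, Igfbpl1 and Draxin are genes of developing neurons, Nes is a gene of neural progenitors, and Mki67, Top2a and Ccnd2 are genes of cell division. They were chosen by name, with results of these same libraries known, and make up 10 of the 48709 genes in the count files. Every one of them was among the 19286 genes kept for testing, which means 5 or more reads in no fewer than 50% of libraries. As the choice used these data, the differences between groups given for the 10 genes are a description and not independent evidence of a direction.

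Polyadenylated RNA of microdissected hippocampal tissue from male wild-type C57B/6J mice was sequenced in 19 libraries, and the tissue is the CA1 region per the labels and dorsal hippocampus per the study's text. Young mice of 3 months (young, n = 6) and old mice of 16.5 months (old control, n = 6) had received scrambled control oligonucleotides in lipid nanoparticles that were injected into the dorsal hippocampus. The third group, also of 16.5 months, had received inhibitory oligonucleotides against the microRNAs miR-181a-5p and miR-148a-3p as well as miR-146a-5p in the same kind of particle (old anti-miR-mix, n = 7). All 3 groups had therefore been injected, no transgene or mutant allele was involved, and tissue without an injection was not analysed here. Old control against young asks about age, old anti-miR-mix against old control asks about the inhibitors, and old anti-miR-mix against young asks how far treated old tissue lay from young tissue. No source states that each library is a separate mouse, and the p-values measure only the spread between libraries. The age and treatment comparisons share the old control libraries, and the age comparison and the comparison of treated with young share the young libraries.

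In the adult hippocampus new neurons are made in the dentate gyrus, where stem cells give rise to dividing progenitors and these to immature neurons that then mature. Doublecortin, encoded by Dcx, binds microtubules in migrating neurons, while Sox11 and Sox4 are transcription factors that turn on neuronal genes before maturation. Mki67 and Top2a are transcribed mainly in cells that are between DNA synthesis and mitosis, whatever the cell type, so they mark glia and immune cells that divide as well as progenitors. The CA1 region holds mainly mature pyramidal neurons and glia, and low levels of several of these genes also occur outside neurogenic cells. In bulk tissue fewer cells of a type and less RNA per cell cannot be told apart.

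The libraries held between 26653511 and 38908947 reads assigned to genes. The 6 markers of CA1 pyramidal neurons summed to between 755 and 1144 counts per 1000000 reads (CPM) across all libraries. The 7 markers of dentate granule neurons, the cells of the neighbouring neurogenic region, summed to between 41.1 and 95.2 CPM, and none of these 13 markers was at 0 in any library. From the deposited log2 values a term could be read that scales with an integer, 1 to 4, given to each library, and libraries with the same integer are called a processing group here, although what the integer stands for is not given in the sources used here. Group 3 was unbalanced, with 2 young, 0 old control and 3 treated libraries. Old control replicates 5 and 6 differed by 1.43 times the noise of counting, the least of the 51 pairs of libraries within groups, where the next pair differed by 2.07 times. They were kept as 2 libraries, and a fit that counts them as 1 was among the alternatives.

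Per length of transcript the 10 genes spanned a wide range of levels. On the scale of CPM per kilobase of exon (RPKM), Dpysl3 had the highest mean over the 19 libraries (10.6, range 8.5 to 13.6), followed by Ccnd2 (6.93, range 5.49 to 8.26) and Dcx (3.47, range 2.32 to 4.41). The ranges of these 3 genes did not overlap. Nes, Sox11 and Sox4 came next at mean RPKM levels of 2.03, 1.79 and 1.48, and each overlapped its neighbour in this order, as did Dcx and Nes. The mean RPKM was 0.348 for Mki67, 0.24 for Top2a, 0.109 for Draxin and 0.105 for Igfbpl1. Among these 4 genes, neighbours in the order overlapped. All 4 lay below Sox4 in every library, since the highest RPKM among them was 0.585 and the lowest of Sox4 was 1.28. Igfbpl1 rested on 3 to 42 reads per library and Draxin on 9 to 44 reads, whereas Dcx had 972 to 1737 reads and Dpysl3 1647 to 3177 reads.

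**Figure D1:**
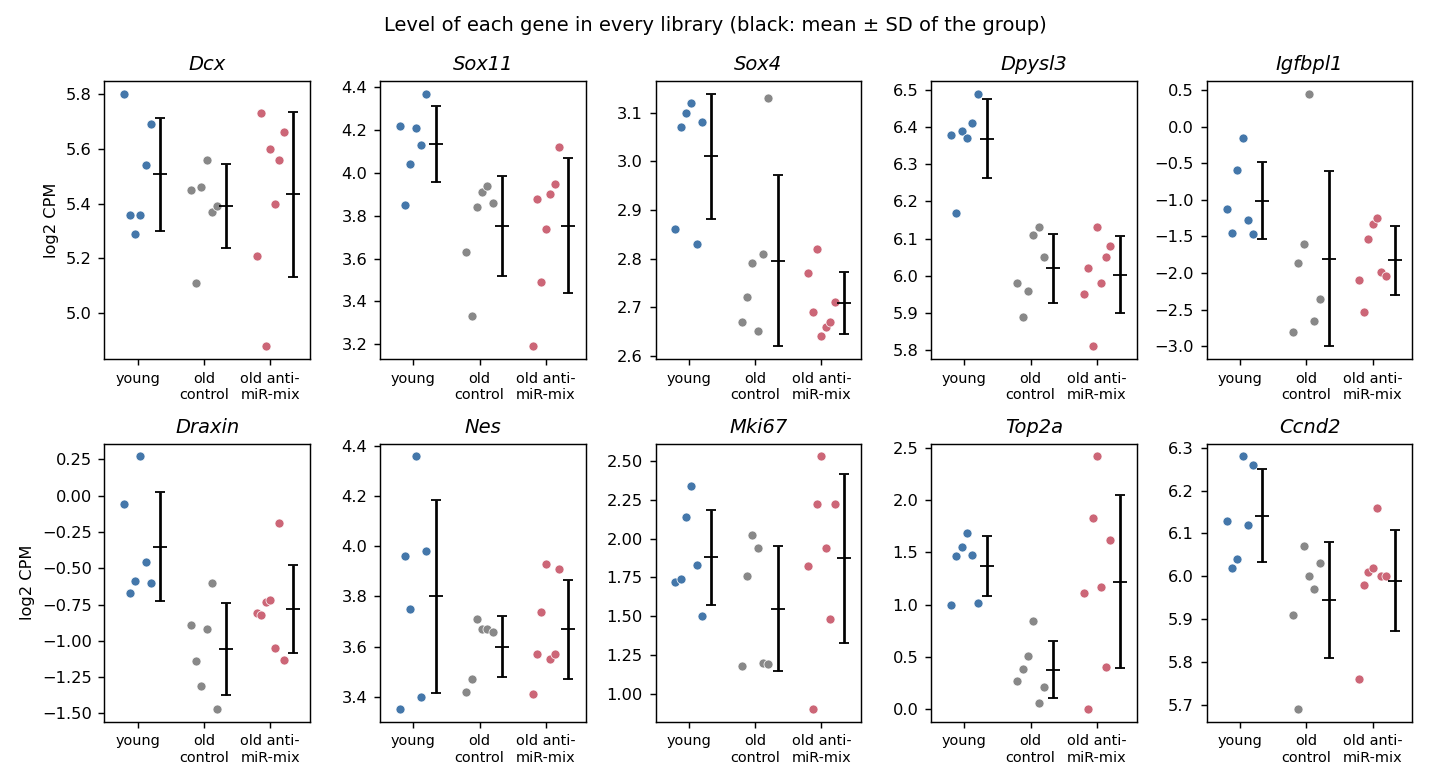
Level of each of the 10 genes (y axis, log2 CPM with a prior count of 2; each panel has its own scale) by group of libraries (x axis); coloured points are libraries and black bars the group mean ± SD. The 6 young points of Dpysl3 lie above all 13 old points, and the old anti-miR-mix points of Top2a spread from 0.00 to 2.42.

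Dpysl3, which encodes a collapsin response mediator protein of growing axons (ENSMUSG00000024501, chromosome 18, 43320984 to 43438286, minus strand of GRCm38), had its highest levels in young tissue. Its log2 CPM had a lowest, median and highest value of 6.17, 6.38 and 6.49 in young, of 5.89, 6.02 and 6.13 in old control, and of 5.81, 6.02 and 6.13 in old anti-miR-mix libraries. The lowest young value, that of replicate 2, was above the highest value of either old group. The log2 fold change was -0.35 in old control against young (SE 0.05, adjusted p = 0.00138), a level of 0.785 times that of young, by edgeR's quasi-likelihood test with p-values adjusted over all genes tested, and -0.36 in old anti-miR-mix against young (SE 0.05, adjusted p = 0.000166). These calls were made in each of the 9 other settings of the fit (other tools, scalings, filters, covariates or choices of libraries) and when any single library was left out. Old anti-miR-mix and old control libraries differed by a log2 fold change of -0.02 (95% interval -0.12 to 0.09). Within the 3 processing groups that hold both young and old control libraries the age difference was negative in all 3, at -0.44, -0.13 and -0.36 log2 CPM in groups 1, 2 and 4.

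With age, 1 of the 10 genes (Dpysl3, lower) passed the threshold of an adjusted p under 0.05, where 2.67% of all tested genes passed in either direction and 1.34% were lower. In the same fit 6 of the 10 had an unadjusted p under 0.05, as did 3483 of all 19286 genes tested. In DESeq2 2 of the 10 passed (Dpysl3 and Top2a), where 4.52% of all tested genes did. The groups did not overlap for Dpysl3 and Top2a, both lower in old control, against 2.54% of all tested genes in either direction. All 10 fitted log2 fold changes were negative, from -1.03 for Top2a to -0.12 for Dcx, with a median of -0.34 beside 0.006 over all genes tested, and of -0.20 with processing group as a factor. The 6 genes of developing neurons had a median of -0.37, and the 3 genes of cell division a median of -0.33, which were -0.27 and -0.17 with processing group as a factor.

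For treatment 0 of the 10 genes passed the threshold in edgeR, where 0.669% of all tested genes passed. In the same fit 1 of the 10 (Top2a) had an unadjusted p under 0.05, as did 2026 of all 19286 genes tested. In DESeq2 1 of the 10 passed, again Top2a, where 1.36% of all tested genes passed. The groups did not overlap for 0 of the 10, against 0.498% of all tested genes. The 6 genes of developing neurons had a median log2 fold change of 0.00 and values from -0.55 to 0.30, while the 3 genes of cell division had a median of 0.38 and values from 0.04 to 1.06. With processing group as a factor the median of these 3 was 0.09, with Ccnd2 at 0.00, Mki67 at 0.09 and Top2a at 0.65. In old anti-miR-mix against young 2 of the 10 genes passed, both lower (Sox4 and Dpysl3), where 6.2% of all tested genes passed in either direction and 1.63% were lower. In DESeq2 Sox11 passed as well, where 7.88% of all tested genes did. Sox4 and Dpysl3 were also the 2 genes whose groups did not overlap, against 2.42% of all tested genes. An unadjusted p under 0.05 in edgeR was found for 5 of the 10 genes and for 3785 of all 19286 genes tested. In that comparison the medians were -0.37 for the genes of developing neurons and 0.03 for the genes of cell division, the latter being -0.14 with processing group as a factor.

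**Figure D2:**
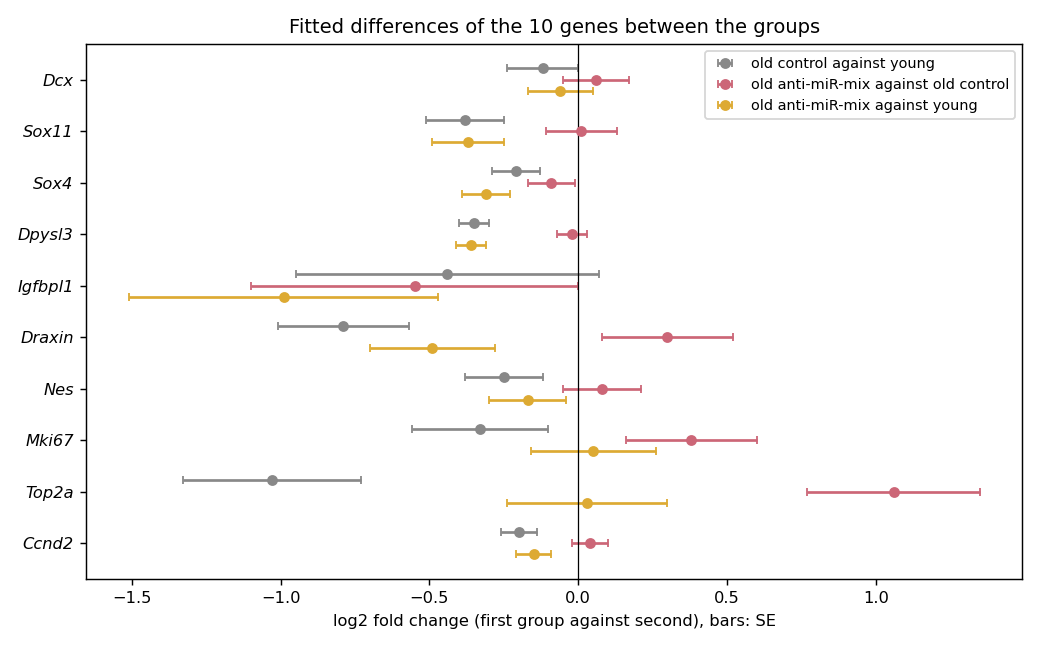
Fitted log2 fold change (x axis) of each of the 10 genes (y axis) in the 3 comparisons, shown by colour; points are estimates from edgeR and bars 1 SE to either side. The age values (grey) all lie below 0, the treatment values (red) of Dcx, Sox11, Sox4, Dpysl3, Nes and Ccnd2 lie between -0.09 and 0.08, and that of Top2a is at 1.06.

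Dcx itself showed no difference between groups that was larger than the spread of the libraries (ENSMUSG00000031285, chromosome X, 143855842 to 143933311, minus strand). Its log2 CPM ran from 5.29 to 5.80 in young (median 5.45), from 5.11 to 5.56 in old control (median 5.42) and from 4.88 to 5.73 in old anti-miR-mix libraries (median 5.56). The 3 ranges overlapped from 5.29 to 5.56, and the single lowest value was that of old anti-miR-mix replicate 3. The log2 fold change with age was -0.12 (SE 0.12, 95% interval -0.35 to 0.11, adjusted p = 0.638) and that of treatment 0.06 (SE 0.11, 95% interval -0.16 to 0.28, adjusted p = 0.912).

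Sox11 and Sox4 encode related transcription factors of neuronal differentiation. For Sox11 (ENSMUSG00000063632, chromosome 12, 27334264 to 27342574, minus strand) the log2 CPM had a lowest, median and highest value of 3.85, 4.17 and 4.37 in young, 3.33, 3.85 and 3.94 in old control and 3.19, 3.88 and 4.12 in old anti-miR-mix libraries. Each old group overlapped the young group at its upper end. Its log2 fold change was -0.38 with age (SE 0.13, adjusted p = 0.107) and -0.37 in old anti-miR-mix against young (SE 0.12, adjusted p = 0.0774), and neither passed the threshold. The age difference passed in 1 of 9 other settings (only the 2 groups compared, adjusted p = 0.0428, with 0.0428 to 0.166 over the 9), and the difference of treated from young in 3 of 9. For treatment the log2 fold change of Sox11 was 0.01 (95% interval -0.23 to 0.26).

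Sox4 (ENSMUSG00000076431, chromosome 13, 28948919 to 28953713, minus strand) had log2 CPM values of 2.83, 3.08 and 3.12 in young (lowest, median, highest), 2.65, 2.76 and 3.13 in old control and 2.64, 2.69 and 2.82 in old anti-miR-mix libraries. All 7 treated libraries lay below all 6 young libraries, while old control replicate 6, at 3.13, was as high as the highest young library. The log2 fold change of old anti-miR-mix against young was -0.31 (SE 0.08, adjusted p = 0.0157), and it passed in all 9 other settings and with each single library left out. The age difference was -0.21 (SE 0.08, adjusted p = 0.149) and reached -0.29 (adjusted p = 0.0362) without old control replicate 6, where the adjusted p ran from 0.0362 to 0.288 over single libraries left out. The treatment difference was -0.09 (95% interval -0.25 to 0.06).

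Draxin encodes a secreted guidance protein that binds netrin and its receptor Dcc, and Igfbpl1 encodes a secreted protein related to the binding proteins of insulin-like growth factor. Draxin (ENSMUSG00000029005, chromosome 4, 148098437 to 148130698, minus strand) had log2 CPM values of -0.67, -0.52 and 0.27 in young (lowest, median, highest), -1.47, -1.03 and -0.60 in old control and -1.13, -0.81 and -0.19 in old anti-miR-mix libraries. Of the old control libraries only replicate 5 reached the young range, and old anti-miR-mix replicate 6, at -0.19, lay within it. The log2 fold change with age was -0.79 (SE 0.22, adjusted p = 0.056), a level of 0.577 times that of young, and it passed when young replicate 2 was left out (-0.86, adjusted p = 0.0396, with 0.0396 to 0.169 over all such fits). For treatment it was 0.30 (SE 0.22, 95% interval -0.13 to 0.74, adjusted p = 0.682). Draxin overlaps Mad2l2 on the opposite strand, which held 168 to 277 reads per library, and as the use of strand in counting was not stated, their reads may not be separable.

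Igfbpl1 (ENSMUSG00000035551, chromosome 4, 45809468 to 45826923, minus strand) was the gene with the fewest reads, with a median of 11 reads in young, 5 in old control and 6 in old anti-miR-mix libraries. Its log2 CPM ran from -1.47 to -0.16 in young, -2.81 to 0.45 in old control and -2.54 to -1.25 in old anti-miR-mix libraries, and the groups overlapped. Old control replicate 4 held 42 reads, the most of all libraries, while the other old control libraries reached at most -1.61 log2 CPM against 0.45 in this one. The age difference was -0.44 (SE 0.51, adjusted p = 0.708) with this library and -1.63 (adjusted p = 0.0285) without it, and the adjusted p reached 0.931 with other libraries left out. The treatment difference, -0.55 (SE 0.55, 95% interval -1.62 to 0.52), had a value of 0.64 without it. The level of Igfbpl1 in the old control group therefore rested on 1 library.

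Nes encodes nestin, an intermediate filament protein of neural stem cells that is also found in blood vessels and reactive glia (ENSMUSG00000004891, chromosome 3, 87971078 to 87980451, plus strand). Its log2 CPM ran from 3.35 to 4.36 in young (median 3.86), from 3.42 to 3.71 in old control (median 3.66) and from 3.41 to 3.93 in old anti-miR-mix libraries (median 3.57). The young libraries spread more widely (SD 0.38) than the old control libraries (SD 0.12) and enclosed them. In old control against young the fitted difference was -0.25 on the log2 scale (SE 0.13, adjusted p = 0.344) and it was 0.08 for treatment (SE 0.13, adjusted p = 0.889).

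Ccnd2 encodes cyclin D2, which drives entry into the cell cycle and is used by dividing neural progenitors (ENSMUSG00000000184, chromosome 6, 127125162 to 127152193, minus strand). The log2 CPM ran from 6.02 to 6.28 in young (median 6.13), from 5.69 to 6.07 in old control (median 5.98) and from 5.76 to 6.16 in old anti-miR-mix libraries (median 6.00). With age the log2 fold change was -0.20 (SE 0.06, adjusted p = 0.0967) and that of treatment 0.04 (SE 0.06, 95% interval -0.08 to 0.16). An antisense gene, 9330179D12Rik, overlaps it with 48 to 112 reads per library. Of the old control libraries only replicates 3 and 6 reached the young range, and of the treated libraries replicate 5 and, at the lower edge, replicate 4.

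Mki67 and Top2a varied together and most among the treated libraries. Mki67 encodes the proliferation antigen Ki-67, which coats mitotic chromosomes (ENSMUSG00000031004, chromosome 7, 135689784 to 135716361, minus strand), and its log2 CPM had a lowest, median and highest value of 1.5, 1.79 and 2.34 in young, 1.18, 1.48 and 2.02 in old control and 0.90, 1.94 and 2.53 in old anti-miR-mix libraries. The 3 groups overlapped, and the treated group held both the lowest and the highest of the 19 values, in replicates 2 and 4. Fitted log2 fold changes were -0.33 with age (SE 0.23, adjusted p = 0.473), 0.38 for treatment (SE 0.22, 95% interval -0.05 to 0.81, adjusted p = 0.572) and 0.05 in treated against young (SE 0.21, adjusted p = 0.941).

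Top2a encodes topoisomerase II alpha, which untangles DNA before chromosomes separate (ENSMUSG00000020914, chromosome 11, 98992943 to 99024189, minus strand). Its log2 CPM had a lowest, median and highest value of 1.00, 1.48 and 1.69 in young, 0.06, 0.32 and 0.84 in old control and 0.00, 1.17 and 2.42 in old anti-miR-mix libraries. The old control group lay wholly below the young group. The treated group enclosed both of the others, with replicate 2 below every old control library, replicate 6 among them at 0.40, and replicates 3 and 4 above every young library. Its log2 fold change with age was -1.03 (SE 0.30, adjusted p = 0.0683), a level of 0.489 times that of young, and it passed in 3 of 9 other settings (adjusted p from 0.00259 to 0.245). For treatment it was 1.06 (SE 0.29, adjusted p = 0.111), and this passed in DESeq2 (adjusted p = 0.0219) and without old anti-miR-mix replicate 6 (1.19, adjusted p = 0.0354), but in no other setting. Over the 9 other settings the adjusted p of this difference ran from 0.0219 to 0.868, and over single libraries left out from 0.0354 to 0.297. Treated and young libraries differed by 0.03 (SE 0.27, 95% interval -0.50 to 0.56).

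Mki67 and Top2a were also set beside the processing groups, and a relation to processing group was not tested. The 5 libraries of group 3, which has no old control library, held Mki67 at 1.94 to 2.53 log2 CPM and Top2a at 1.17 to 2.42 log2 CPM. Of the libraries of other groups only old anti-miR-mix replicate 7 of group 2 lay within both ranges, with Mki67 at 2.22 and Top2a at 1.62. Old control replicates 3 and 4 lay within the range of Mki67 only, with Top2a at 0.51 and 0.84. Young replicates 2 and 5 lay within the range of Top2a only, with Mki67 at 1.74 and 1.83. Within the 3 processing groups that allow the comparison, the treatment difference of Top2a was 0.79, 0.14 and 0.26 log2 CPM in groups 1, 2 and 4, and that of Mki67 was 0.35, -0.42 and 0.28. The age difference of Top2a within the same groups was -0.68, -0.80 and -1.12 log2 CPM, each from 1 or 2 libraries a side. The treatment fold change of Top2a was lowest, at 0.63, with processing group as a term and old control replicates 5 and 6 as 1 library. Group 3 allows no treatment difference of its own, as it holds no old control library.

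**Figure D3:**
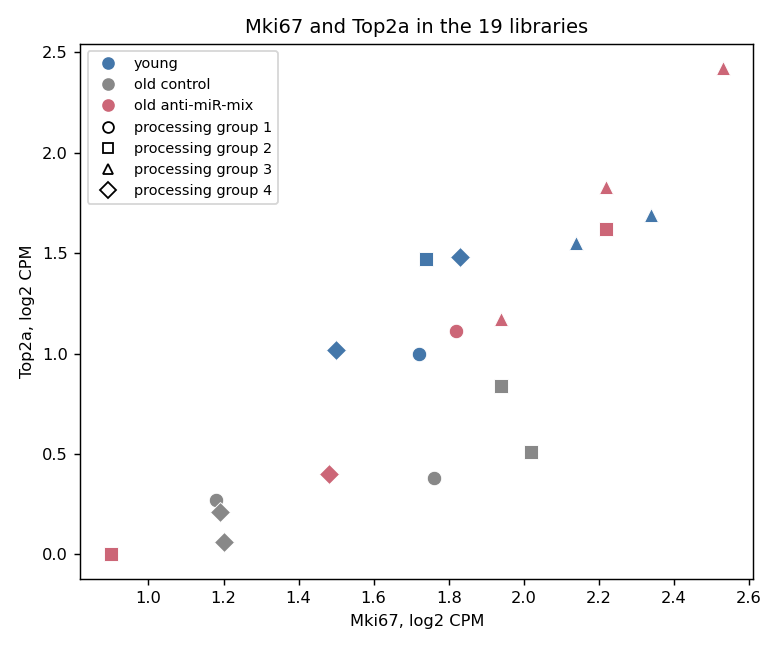
Log2 CPM of Mki67 (x axis) against that of Top2a (y axis) in each of the 19 libraries, with colour for the group and shape for the processing group. The points rise along a line from old anti-miR-mix replicate 2 at the lower left to replicate 4 at the upper right, and the 5 libraries of processing group 3 have Top2a values of 1.17 or more.

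After removal of the group means the correlation of Mki67 and Top2a over the 19 libraries was r = 0.89 and rho = 0.92 (permutation test within groups, two-sided, p = 1e-05 for each, the smallest that 100000 permutations can give, and 0.00045 after adjustment over the 45 pairs of the 10 genes). Without the 2 libraries farthest out, old anti-miR-mix replicates 2 and 4, r was 0.81, and with processing group also removed it was 0.83 over all libraries. Each processing group held only 4 or 5 libraries, too few for a correlation of its own. The promoters of both genes are shown because the genes vary together. They run from 250 bases before to 50 bases after the start of transcription (RefSeq, build GRCm38.p6), and capitals mark CCAAT and TTTGAA on either strand, which are letters of the CCAAT box bound by NF-Y and of the cell cycle homology region that controls genes of late cell cycle. The promoter of Mki67, at chr7:135716330-135716629 on the minus strand, and that of Top2a, at chr11:99024140-99024439 on the minus strand, read:
Mki67: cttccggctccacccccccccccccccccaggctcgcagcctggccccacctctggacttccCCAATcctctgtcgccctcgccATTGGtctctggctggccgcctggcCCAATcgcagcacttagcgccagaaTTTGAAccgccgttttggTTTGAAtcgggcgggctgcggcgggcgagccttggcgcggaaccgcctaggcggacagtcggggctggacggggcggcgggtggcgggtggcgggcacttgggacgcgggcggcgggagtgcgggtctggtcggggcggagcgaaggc
Top2a: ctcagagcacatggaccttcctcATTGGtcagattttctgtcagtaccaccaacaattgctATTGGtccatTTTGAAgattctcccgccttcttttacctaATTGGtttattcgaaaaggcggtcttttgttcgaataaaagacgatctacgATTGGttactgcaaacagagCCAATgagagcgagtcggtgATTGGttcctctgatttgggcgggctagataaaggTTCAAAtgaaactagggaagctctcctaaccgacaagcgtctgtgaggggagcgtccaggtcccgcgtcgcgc

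The Mki67 window held CCAAT or its reverse complement ATTGG at 3 places and the Top2a window at 6 places, and each held TTTGAA or its reverse complement TTCAAA at 2 places. Of the 32851 promoter windows searched, 37.4% held CCAAT and 17.9% held TTTGAA on either strand. The motifs TTTCCCGC and TTTGGCGC were searched as well, and each had 0 matches in the Mki67 and Top2a windows. They were held by 1.07% and 0.514% of all windows. Among the 35 of 43 other cell cycle genes with a window, 26 held CCAAT, 17 held TTTGAA, 3 held TTTCCCGC and 4 held TTTGGCGC in at least 1 window. These counts are by gene and the shares above by window, so the units differ. A match is a description of the letters and was not tested as a site. Promoters of 7 of the 10 genes were matched by symbol. Of these, Dcx held 1 match of CCAAT and no TTTGAA in each of its 2 windows, and Sox11 held 1 match of each of these motifs. Sox4 held CCAAT at 4 places and no TTTGAA, and Draxin and Nes held neither CCAAT nor TTTGAA. No window of the 7 genes held TTTCCCGC or TTTGGCGC.

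Genes of the cell cycle that are not among the 10 were examined with a list of 43, of which 41 were tested. With age, 3 were lower and 1 was higher. The lower genes were Aurkb, a mitotic kinase (log2 fold change -1.45, SE 0.33, adjusted p = 0.0244), Cenpf, a kinetochore protein (-0.68, SE 0.16, adjusted p = 0.0302), and Kif11, a spindle motor (-0.65, SE 0.16, adjusted p = 0.0302). Cdc6, which licenses origins of replication, was higher (0.67, SE 0.18, adjusted p = 0.0433). The median over the 41 genes was -0.18, beside 0.006 over all genes tested, and 32 of 41 values were negative. With processing group as a factor 1 of the 41 genes passed, a higher one, and 30 of 41 values were negative. With young replicate 4 left out 0 passed.

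For treatment 0 of the 41 genes passed in edgeR and 0 passed in DESeq2. An unadjusted p under 0.05 in edgeR was found for 13 of the 41 and for 2026 of all 19286 genes tested. The median log2 fold change was 0.18, beside 0.000 over all genes tested, and 35 of 41 values were positive. The 4 highest values were those of Bub1 (1.06), Aurkb (1.01), Cdk1 (0.97) and Ube2c (0.94), with adjusted p values in edgeR from 0.241 to 0.385. With processing group as a factor 32 of 41 values were positive and the median was 0.13. In that fit 2 of the 41 had an unadjusted p under 0.05, as had 1293 of all 19286 genes tested. These 4 genes were chosen after their values were seen. In old anti-miR-mix against young only Anln, a protein of the dividing cell's contractile ring that is also found in myelin, passed (0.46, SE 0.10, adjusted p = 0.0073), and the median was 0.00.

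The D cyclins Ccnd1 and Ccnd3 and their kinases Cdk4 and Cdk6 gave 0 calls in any of the 3 comparisons in edgeR, with 1 of 4 at an unadjusted p under 0.05 in each. Their medians were -0.05 with age, 0.08 for treatment and 0.12 in treated against young.

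The inhibitors were directed at 3 microRNAs, which pair with messenger RNAs through a seed of bases 2 to 8. The mature sequences are given because they define what was inhibited, with the seed in capitals. In RefSeq (GRCm38.p6) miR-146a-5p lies at chr11:43374435-43374456 and miR-148a-3p at chr6:51269829-51269850, both on the minus strand, and miR-181a-5p has a copy at chr1:137966468-137966490 and one at chr2:38852741-38852763, both on the plus strand:
miR-146a-5p: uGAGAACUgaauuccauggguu
miR-148a-3p: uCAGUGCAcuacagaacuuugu
miR-181a-5p: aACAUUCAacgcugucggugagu

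The 3 seeds differ from each other, and their matches in a messenger RNA read AGTTCTC for miR-146a-5p, TGCACTG for miR-148a-3p and TGAATGT for miR-181a-5p. These were searched on the sense strand in the longest 3′ untranslated region (3′UTR) annotated for each gene in GENCODE M21. Of the 10 genes, 5 held at least 1 match, namely Dcx, Sox11, Dpysl3, Igfbpl1 and Ccnd2. Over the 15387 tested genes with a 3′UTR, 13.4% held the match of miR-146a-5p, 16.3% that of miR-148a-3p and 18.8% that of miR-181a-5p, against 3, 2 and 2 of the 10. The 3′UTRs of Dcx (7709 bases), Sox11 (6957 bases) and Ccnd2 (5173 bases) are long beside the median of 1330 bases, whereas those of Nes, Mki67 and Top2a have 421, 305 and 511 bases and held none. The stretches around the matches in Dcx, Sox11, Igfbpl1 and Ccnd2, with the match in capitals and its distance from the start of the 3′UTR, are:
Dcx, miR-146a-5p, base 2245: ggcttcttggtAGTTCTCtgagcattttt
Dcx, miR-146a-5p, base 6364: ttttctttctaAGTTCTCttaaagacttt
Dcx, miR-181a-5p, base 5709: cttacagctcaTGAATGTttaggtcttta
Sox11, miR-148a-3p, base 1442: agcagactcaaTGCACTGtcgaagtcacc
Sox11, miR-181a-5p, base 2812: gtgaactctatTGAATGTctaatacacaa
Igfbpl1, miR-146a-5p, base 1413: ttgtgtattggAGTTCTCactcaaactga
Ccnd2, miR-146a-5p, base 1868: gtcgagagacgAGTTCTCtgtactggaaa

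Under the inhibitors the genes with a match had log2 fold changes of 0.06 (Dcx), 0.01 (Sox11), -0.02 (Dpysl3, with 2 matches of miR-148a-3p), -0.55 (Igfbpl1) and 0.04 (Ccnd2). Those without a match had -0.09 (Sox4), 0.30 (Draxin), 0.08 (Nes), 0.38 (Mki67) and 1.06 (Top2a). None of the 10 passed the threshold in edgeR, and the difference between the genes with and without a match was not tested. A match of these letters was not tested as a binding site.

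Other genes of immature neurons were examined with a list of 25, of which 24 were tested. With age 3 were lower and 0 were higher. These were Nrep, a regulator of regrowing neurons (log2 fold change -0.77, SE 0.20, adjusted p = 0.0454), Dpysl5, a relative of Dpysl3 (-0.24, SE 0.06, adjusted p = 0.0442), and Tuba1a, a tubulin of growing neurons (-0.17, SE 0.04, adjusted p = 0.0384). The median was -0.08, and 17 of 24 values were negative. For treatment 0 of 24 passed in edgeR and in DESeq2, 0 had an unadjusted p under 0.05 in edgeR, and the median was -0.01. In treated against young Dpysl5 (-0.29, SE 0.06, adjusted p = 0.00515) and Stmn2, a microtubule regulator of growing axons (-0.15, SE 0.04, adjusted p = 0.0398), were lower. The age calls of this list were close to the threshold, with 0 genes called when young replicate 1, 4, 5 or 6 or old control replicate 2, 3 or 4 was left out. In those fits the calls over all genes fell as well, from 514 to between 214 and 393.

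Of the 10 tested genes of netrin signalling, in which Draxin acts, Neo1, a receptor of netrin, was lower with age (log2 fold change -0.13, SE 0.03, adjusted p = 0.0277), and 0 passed for treatment or in treated against young in edgeR, with 0 and 2 at an unadjusted p under 0.05. The call of Neo1 was lost without the filter, with processing group as a factor, with old control replicates 5 and 6 as 1 library, and without young replicate 1, 4 or 5 or old control replicate 1 or 5. Of 15 tested genes of neural stem cells 2 were lower with age. These were Prom1, a membrane protein of stem cells that is also expressed in glia (-0.38, SE 0.08, adjusted p = 0.00865), and Lpar1, a receptor of lysophosphatidic acid that is also expressed in oligodendrocytes (-0.36, SE 0.09, adjusted p = 0.0415). With processing group as a factor Prom1 passed and Lpar1 did not, and Sox2, a transcription factor of stem cells that is also expressed in astrocytes, was called higher. For treatment 0 of 15 passed in edgeR, with 3 at an unadjusted p under 0.05, and 1 passed in DESeq2. In treated against young Prom1 was lower (-0.33, SE 0.07, adjusted p = 0.00717) and Vim, the filament vimentin of stem cells and reactive glia, was higher (0.95, SE 0.21, adjusted p = 0.00722).

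**Figure D4:**
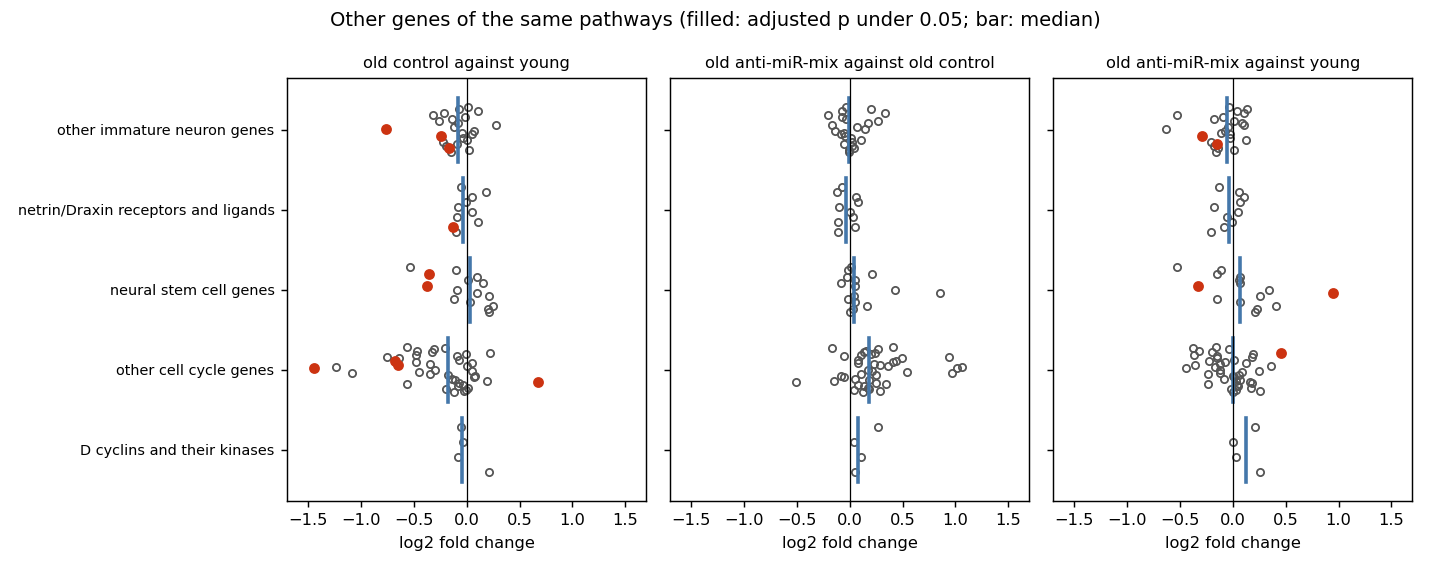
Log2 fold change (x axis) of each tested gene of 5 pathway lists (y axis) in the 3 comparisons (panels); filled red points passed an adjusted p under 0.05, open points did not, and blue bars are list medians. The cell cycle genes have medians of -0.18 with age and 0.18 for treatment, and those of the immature neuron list are -0.08 and -0.01.

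Markers of other cells that carry some of these genes were set beside them. Of the 7 markers of newly formed oligodendrocytes, 5 were lower with age, 0 passed for treatment in edgeR (1 in DESeq2, 2 at an unadjusted p under 0.05), and 4 were lower in treated against young, and the list summed to between 404 and 541 CPM in young, 344 and 405 CPM in old control and 364 and 464 CPM in old anti-miR-mix libraries. Precursors of oligodendrocytes, a dividing cell type of the adult brain, gave 0 of 7 markers called with age or treatment in edgeR. With age 1 and for treatment 2 had an unadjusted p under 0.05, and for treatment all 7 values were positive (median 0.05). The precursor list summed to 288 to 342 CPM in young, 294 to 314 CPM in old control and 297 to 353 CPM in old anti-miR-mix libraries. Of 9 microglial markers, 1 was higher with age, 4 with treatment and 8 in treated against young, with summed levels of 344 to 439 CPM in young, 434 to 509 CPM in old control and 499 to 658 CPM in old anti-miR-mix libraries. With processing group as a factor 4 of the microglial markers were higher with age and 0 with treatment, where the median log2 fold change went from 0.27 to 0.15, and 1 was higher with treatment when old control replicates 5 and 6 were counted as 1. Of 5 markers of reactive astrocytes, 1, 0 and 3 were higher in these comparisons in edgeR, with 2, 4 and 4 at an unadjusted p under 0.05. For treatment all 5 log2 fold changes were positive, with a median of 0.56. The reactive astrocyte list summed to 376 to 806 CPM in young, 605 to 861 CPM in old control and 713 to 1169 CPM in old anti-miR-mix libraries. No marker of these lists was at 0 in any library, and their part in the levels of Dpysl3, Mki67 or Top2a was not tested by the comparison of groups.

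Dentate granule markers gave 0 of 7 calls in each of the 3 comparisons in edgeR, with 1, 0 and 1 at an unadjusted p under 0.05. They summed to between 43.7 and 95.2 CPM in young, 41.1 and 75.6 CPM in old control and 44.3 and 90.1 CPM in old anti-miR-mix libraries. Their median log2 fold change was -0.09 with age and 0.10 for treatment, and 0.20 and -0.22 with processing group as a factor. With that factor 5 of 7 values instead of 2 were positive with age, and 1 instead of 5 for treatment. The 6 markers of neuroblasts of the ventricular zone, which summed to 51.3 to 58.6 CPM over all libraries, also gave 0 calls, with 1, 1 and 0 at an unadjusted p under 0.05. Markers of endothelial cells and of pericytes, in which nestin can occur, gave 0 calls in each comparison as well, with 2 of 9 endothelial markers and 0 of 5 pericyte markers at an unadjusted p under 0.05 in each. Of 6 ependymal and choroid plexus markers 4 were tested and 0 were called, with 1, 0 and 0 at an unadjusted p under 0.05, and the list summed to between 19.6 and 108 CPM over all libraries. Of the 6 CA1 markers 1, Wfs1, was lower in treated against young (-0.36, SE 0.10, adjusted p = 0.0366). In that comparison 0 were called with only the 2 groups compared, with a replicate block, or with old control replicates 5 and 6 as 1 and processing group as a factor. The same held without any 1 of young replicates 1, 3, 4 and 6 and old anti-miR-mix replicates 1 to 5. With age and for treatment 0 of the 6 were called in edgeR, with 0 and 1 at an unadjusted p under 0.05. With age 5 of 6 values were positive (median 0.14), and for treatment all 6 were negative (median -0.15).

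Across libraries 7 of the 10 genes varied together with at least 1 other once the group means were removed, and Sox4, Draxin and Nes were in no pair that passed. Of 45 pairs, 7 had an adjusted p under 0.05 by Pearson's r and 5 of these by Spearman's rho as well, and 9 had an unadjusted p under 0.05. Dcx and Sox11 correlated at r = 0.72 and rho = 0.67 (permutation, p = 0.00303 and 0.0039, adjusted p = 0.0195 and 0.0351), with r = 0.65 without the 2 libraries farthest out. Sox11 and Dpysl3 correlated at r = 0.71 and rho = 0.69 (permutation, p = 0.00164 and 0.00347, adjusted p = 0.0123 and 0.0351), with r = 0.75 without the farthest 2. With processing group also removed these values of r were 0.83 and 0.69.

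Igfbpl1, which was grouped with the developing neuron genes, varied with Mki67 and Top2a, while its r with Ccnd2 was 0.26 (permutation, adjusted p = 0.767). Its r was 0.68 and its rho 0.79 with Mki67 (permutation, p = 9e-05 and 0.00015, adjusted p = 0.00202 and 0.00337), and r was 0.77 without old control replicate 4 and young replicate 4. With Top2a r was 0.53 and rho 0.67 (permutation, p = 0.00059 and 0.00166, adjusted p = 0.00664 and 0.0249), and r was 0.56 without the same libraries. With processing group also removed these values of r were 0.50 and 0.28. Ccnd2, a gene of cell division by its role, had an r of 0.08 with Mki67 and 0.06 with Top2a but of 0.77 with Sox11 (permutation, p = 0.00057, adjusted p = 0.00664), where rho was 0.60 (adjusted p = 0.0611) and r fell to 0.52 without old anti-miR-mix replicate 1 and old control replicate 2. Dcx and Dpysl3 had an r of 0.70 (permutation, adjusted p = 0.0114) and a rho of 0.59 (adjusted p = 0.0786), with r = 0.49 without the 2 farthest libraries. With processing group also removed r was 0.75 for Ccnd2 with Sox11 and 0.82 for Dcx with Dpysl3. The pairs between Dcx and either Mki67 or Top2a had an r of -0.32 each (permutation, adjusted p = 0.676 and 0.767). With processing group also removed it was -0.10 for each, while r of Dcx with Ccnd2 went from 0.36 to 0.62.

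**Figure D5:**
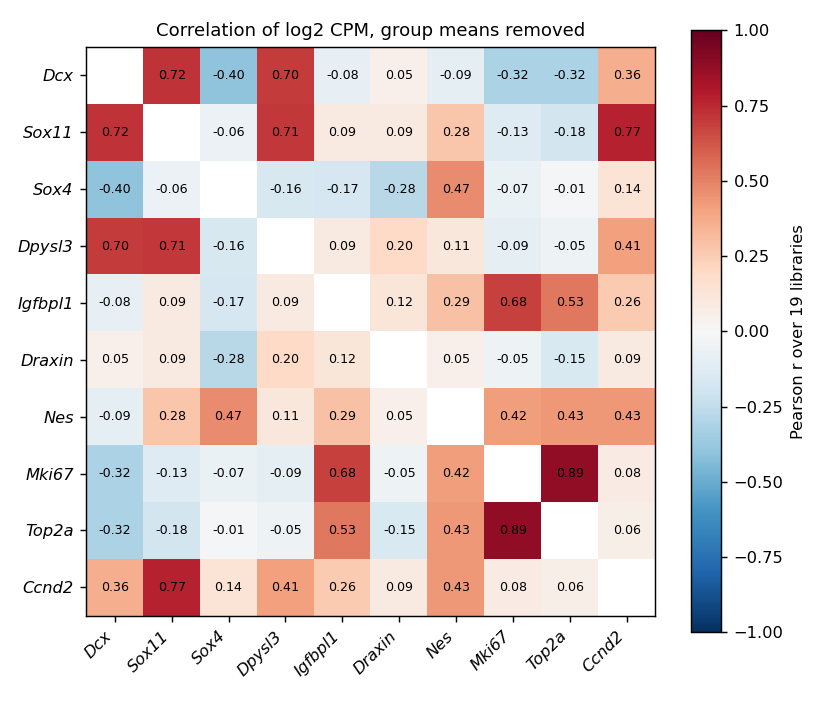
Pearson's r of log2 CPM between each pair of the 10 genes over 19 libraries after removal of the group means; both axes list the genes and colour gives r from -1 to 1. Mki67 with Top2a (0.89), Sox11 with Ccnd2 (0.77) and Dcx with Sox11 (0.72) have the highest values, while Dcx with Mki67 is at -0.32.

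Relations to the summed level of 10 marker lists were also computed after removal of group means, a choice made after the group differences had been seen. Of 100 relations 0 had an adjusted p under 0.05 and 10 had an unadjusted p under 0.05. The strongest was that of Dcx with the CA1 pyramidal list, with r = -0.77 and rho = -0.75 (permutation, p = 0.00087 and 0.00153, adjusted p = 0.087 and 0.112), and r = -0.75 without old anti-miR-mix replicates 2 and 4. With processing group also removed r was -0.81. Dpysl3 had an r of -0.62 with the same list (permutation, p = 0.00681, adjusted p = 0.259). For Sox11 it was -0.55 (permutation, p = 0.0392, adjusted p = 0.436), but for Sox4 0.42 (permutation, p = 0.035, adjusted p = 0.436). With the dentate granule list Igfbpl1 had an r of 0.52 (permutation, p = 0.0144, adjusted p = 0.334), and 0.31 with processing group also removed. Dcx had an r of -0.41 with that list (permutation, p = 0.107, adjusted p = 0.611). Mki67 and Top2a had an r of -0.68 and -0.59 with the ependymal and choroid plexus list (permutation, p = 0.00776 and 0.0167, adjusted p = 0.259 and 0.334), which were -0.46 and -0.40 without old anti-miR-mix replicate 2 and old control replicate 6, and -0.66 and -0.56 with processing group also removed. Top2a had an r of 0.47 and a rho of 0.69 with the reactive astrocyte list (permutation, p = 0.0278 and 0.00225, adjusted p = 0.436 and 0.112), and r was 0.10 with processing group also removed.

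Among 15952 genes with at least 20 reads per library on average, the 5 whose log2 CPM followed Dcx most closely within groups over 19 libraries were Stard4 (r = 0.93), Cntn5 (0.91), Cldn1 (0.91), Prrg3 (0.90) and Fxyd5 (0.90). Those closest to Mki67 were Slfn1 (r = 0.83), Ect2 (0.83), Ifi27l2a (0.82), Uhrf1 (0.81) and Gm12250 (0.81). When values were centred over all libraries instead, Stard4, Cntn5 and Cldn1 remained among the 5 for Dcx, and Gm12250, Uhrf1, Ifi27l2a and Ect2 among the 5 for Mki67. These values are a description of likeness over libraries that share a tissue dissection, and Slfn1 and Gm12250 had a mean of 21.4 and 20.5 reads per library.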

How the data were processed

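RNA of 19 libraries was profiled, with groups from the labels' descriptions, since the titles of all libraries begin with the name of the treatment. Raw read counts by gene were deposited, which the authors made from single-end reads of 50 bases with STAR 2.5.2b and featureCounts (Subread 1.5.1) on mm10, after FastQC 0.11.5, per the labels. Strand and multi-mapping settings were not given in the sources used here. A table of log2 values that the authors deposited for 18761 genes equalled log2(CPM + 1) minus the product of a gene's slope and a library's integer (1 to 4), with no residual above 3.4e-08. It was used only to read these processing groups, whose origin is not described. Depth was 26653511 to 38908947 reads per library.

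The 10 genes and the pathway and marker lists were chosen with earlier results of these data known. The filter asked for 5 or more reads in no fewer than 50% of libraries. TMM factors and the quasi-likelihood F test of edgeR (version 4.0.16, under R 4.3.3) were used in 1 fit of the 3 groups, with p-values adjusted by the Benjamini-Hochberg method over 19286 genes. Log2 CPM had a prior count of 2, and RPKM used exon lengths of GENCODE M21. An interval is the estimate ± the normal quantile multiplied by SE. Correlations were tested by permuting libraries within groups. The code was tested on simulated data. Named genes were the 10, up to 4 called genes per list and comparison with the largest change, the 5 genes closest to Dcx and to Mki67, and markers that move with them. Alternatives were DESeq2 1.42.0, its size factors in edgeR, no filter, processing group as a factor or linear term, old control replicates 5 and 6 as 1, only 2 groups, a replicate block, each library left out, and a prior count of 0.5. Columns of per-sample values left unassigned numbered 0.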

Additional observations from a re-analysis of the deposited data

Results flagged for a closer look

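Dixon's ratio of the gap to the range was computed for each of the 10 genes in each of the 3 groups (30 combinations, on log2 CPM), and chance gives such a gap in about 1 in 20 groups. A library stood apart in 3 of the 30. Sox4 in old control replicate 6 was the highest of its group at 3.13, with the next at 2.81. Dpysl3 in young replicate 2 was the lowest of its group at 6.17, with the next at 6.37. Igfbpl1 in old control replicate 4 was the highest of its group at 0.45, with the next at -1.61.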

How the results depend on the processing

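Among the fold changes of the 10 genes in other settings, 8 passed the threshold that did not in the reported fit. A further 250 kept their sign and their side of the threshold, and 12 changed sign without passing. With 1 library left out these numbers were 6, 353 and 21, and no called value changed sign. Fold changes that kept sign and side could still move, as did that of treatment for Top2a (0.63 to 1.06), Mki67 (0.05 to 0.39) and Igfbpl1 (-1.21 to -0.33) over the 9 settings. The calls of Dpysl3 with age and in treated against young, and of Sox4 in treated against young, held throughout. Top2a with age passed in DESeq2 (adjusted p = 0.0191), with only the 2 groups compared (edgeR, 0.00259) and with a replicate block (edgeR, 0.0259).

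Of the 10 genes, the number called with age was 1 in the reported fit, 2 in DESeq2, 3 with only the 2 groups compared, and 1 to 2 with 1 library left out (over all genes 514, 871 and 772 in the first 3 of these fits), where Draxin was added without young replicate 2, Igfbpl1 without old control replicate 4 and Sox4 without old control replicate 6. For treatment it was 0, 1 in DESeq2, and 0 to 1 with 1 library left out (Top2a without old anti-miR-mix replicate 6), and over all genes it was 129, 263 in DESeq2 and 9 with processing group as a factor. In treated against young it was 2, and 2 to 3 with 1 library left out (Sox11 without young replicate 2 or old anti-miR-mix replicate 7). It was 3 in DESeq2, with processing group as a factor and with a replicate block, with Sox11 added each time. Over all genes 6.2% were called in the reported fit and 7.88%, 6.22% and 6.18% in these 3 fits. Of other immature neuron genes 3 were called with age, 1 without the filter, 1 with processing group as a factor and 1 as a linear term, 0 when old control replicates 5 and 6 were also counted as 1, and 0 to 3 with 1 library left out. For treatment it was 0 throughout. In treated against young it was 2, 6 in DESeq2, 4 with its size factors, 1 without the filter, 1 with processing group as a linear term, 1 as a factor with replicates 5 and 6 as 1, and 1 to 5 with 1 library left out (5 without young replicate 2 or old anti-miR-mix replicate 1). Of other cell cycle genes 4 were called with age, 2 without the filter, 1 with processing group as a factor, 2 with old control replicates 5 and 6 as 1, 0 with both, 7 with only the 2 groups compared, and 0 to 4 with 1 library left out. For treatment 0 were called in each refit, and in treated against young 1 to 2 with 1 library left out (2 without old anti-miR-mix replicate 6). Of neural stem cell genes 2 were called with age, both lower, 1 higher and 1 lower with processing group as a factor, with or without old control replicates 5 and 6 as 1, 1 with processing group as a linear term, 1 with old control replicates 5 and 6 as 1, and 1 to 2 with 1 library left out. For treatment it was 0, 1 in DESeq2, 1 without the filter, and 0 to 1 with 1 library left out, the 1 being Vim. In treated against young it was 2, 4 in DESeq2, and 2 to 4 with 1 library left out (4 without old anti-miR-mix replicate 1). The causes were not tested.

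Whether replicate numbers pair the libraries was not tested. With group means removed, correlations of same-numbered libraries ran from -0.17 to 0.21 (18 pairs, median 0.05). Those of other libraries of different groups ran from -0.27 to 0.39 (102 pairs, median -0.01). Ranges over such unlike numbers of pairs cannot decide the question. Over all genes a replicate block gave 651 calls with age and 249 for treatment, against 514 and 129 in the reported fit. With a replicate block 2 of the 10 genes were called with age (Dpysl3 and Top2a), where 3.38% of all tested genes were. With the same block 1 stem cell gene was called for treatment and 5 in treated against young, where 1.29% and 6.18% of all tested genes were. Mean levels of the 10 genes moved by less than 1 SD with a prior count of 0.5 in all 30 cases. Read numbers limit Igfbpl1 (3 to 42 reads), Draxin (9 to 44 reads) and Top2a (26 to 174 reads) most.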
